A study of Homo sapiens with 2 samples.

Results

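The ADAM and ADAMTS genes encode zinc metalloproteinases of the cell surface and the extracellular matrix. They were taken from the count table as every row named ADAM, ADAMTS or ADAMTSL followed by a number, which gave 46 of its 60649 rows. Of these, 22 are ADAM genes, taken here as the membrane class, and 24 are of the secreted class, 19 of them ADAMTS and 5 ADAMTSL. All 46 names matched a RefSeq gene of GRCh38, and 2 of them, ADAM5 and ADAM6, are annotated as pseudogenes. The rule for members uses names alone.

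The sequenced RNA had been pulled down with a protein through an antibody, a method called RIP (RNA immunoprecipitation). The antibody of one library recognised MT1-MMP, a membrane metalloproteinase whose gene is MMP14. Rabbit IgG took its place in the mock library. Both used wild-type MDA-231 cells, a human breast cancer line, kept for 16 h without serum with the G11 antibody (P4G11) against beta-1 integrin, so every value below belongs to antibody-treated cells of 1 line. The labels are uneven: the first sample's title says MMP1, the mock sample's cell line tag says MDA-232, and the treatment text also names E7-s without giving its role. The design text, which gives MT1-MMP and MDA-231, was followed.

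Most ADAM proteins span the plasma membrane and carry a protease domain, a disintegrin domain that can bind integrins, and a cytoplasmic tail. The active ones act as sheddases: they cut growth factor precursors, cytokines, adhesion molecules and Notch receptors close to the membrane, and several family members have lost the protease activity and serve in adhesion instead. ADAMTS proteins have no membrane anchor. They are secreted, hold thrombospondin repeats that bind matrix, and cut proteoglycans, procollagens or von Willebrand factor. ADAMTSL proteins have the repeats without the protease domain and are found with fibrillin microfibrils.

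The comparison asks which RNAs an MT1-MMP antibody brings down beyond those of the mock. The libraries held 31636000 and 13003668 counts, with 1 library per group, so no p-value was computed and no difference has a replicate check. Ribosomal RNA rows of chromosome 21 took up 10.2% of the first library and 92.6% of the mock library. Ratios were therefore put on the TMM scale (a trimmed mean over rows), on which 45.9 MT1-MMP counts to 1 IgG count equal a ratio of 1, and "higher" and "lower" are relative to that typical row. By plain library totals (CPM, counts scaled to the total of each library) every log2 ratio lies 4.24 higher. Intervals are exact 95% intervals of the ratio that cover counting error only, and a gene was called where its whole interval lay beyond 2-fold. Of the 8 markers known to be expressed in MDA-231 cells, all were measured, from 79 MT1-MMP counts for LGALS1 to 47868 for EGFR. Of the 8, 4 (50%) were called higher in the IgG library and EGFR (12.5%) in the MT1-MMP library. Tested protein-coding rows held 16.2% and 7.24% such calls. The 4, VIM, FOSL1, AXL and LGALS1, have gene spans of 4.17 to 42.5 kb, and EGFR spans 192.6 kb. Protein-coding rows of 50 kb or less held 25.8% IgG calls, and those of over 150 kb held 34.2% MT1-MMP calls. LGALS1 had 115 IgG counts and a log2 ratio of -6.06, and -1.82 by plain CPM. Of 8 markers known to be low or absent in MDA-231 cells, 6 were measured, and KRT19 alone was called, on the IgG side (16.7%). ESR1 (369 and 3 counts), GATA3 (159 and 3) and KRT19 (116 and 119) had more MT1-MMP counts than LGALS1. Per kb of span the expressed markers ran from 19.0 to 270.4 MT1-MMP counts and the low ones from 0.173 to 24.7. Of 10 markers of blood, endothelial, liver and connective tissue cells, none was at 0 in the MT1-MMP library and 7 were at 0 in the IgG library. PECAM1, an endothelial adhesion molecule, had 3414 and 24 counts (log2 ratio 1.60), and the other 9 had at most 50 MT1-MMP counts each. Of the 4 measured, PECAM1 was called higher in the MT1-MMP library and COL1A1 (24 and 12 counts, -4.55) in the IgG library, 25% each. The other endothelial marker, CDH5, had 26 and 2 counts (-2.11, -3.82 to 1.30). The 10 summed to 3525 and 38 counts, and their part in the results was not tested.

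The 46 genes together held 70641 MT1-MMP counts and 704 IgG counts. These are 0.249% and 0.0731% of the counts outside the ribosomal rows. Of the 46, 39 had at least 20 counts summed over both libraries and are called measured. All 39 reached 20 counts in the MT1-MMP library alone, but only 9 did so in the IgG library, and 10 had 0 IgG counts. The 7 that were not measured were ADAM6 and ADAM33 (0 counts in both libraries), ADAM30 (1 MT1-MMP count), ADAMTS8 (2), ADAMTS4 (7), ADAMTS5 (14) and ADAMTS10 (15), each with 0 IgG counts.

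Of the 39 measured genes, 5 were called higher in the MT1-MMP library: ADAMTS12, ADAMTS16, ADAMTS9, ADAMTS6 and ADAMTSL3. Another 3 were called higher in the IgG library, namely ADAM8, ADAM15 and ADAMTS1, and 31 were neither. As shares these are 12.8% and 7.69%, where the 14315 tested protein-coding rows held 7.24% MT1-MMP calls and 16.2% IgG calls. The 5 all encode secreted proteins and are 25% of the 20 measured secreted genes, beside 0% of the 19 measured ADAM genes. All 5 genes span over 150 kb, a length at which 12 secreted and 5 ADAM genes were measured. The 3 IgG calls were all genes of under 15 kb. Gene length went with the call in the whole table too, as described further on.

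**Figure D1:**
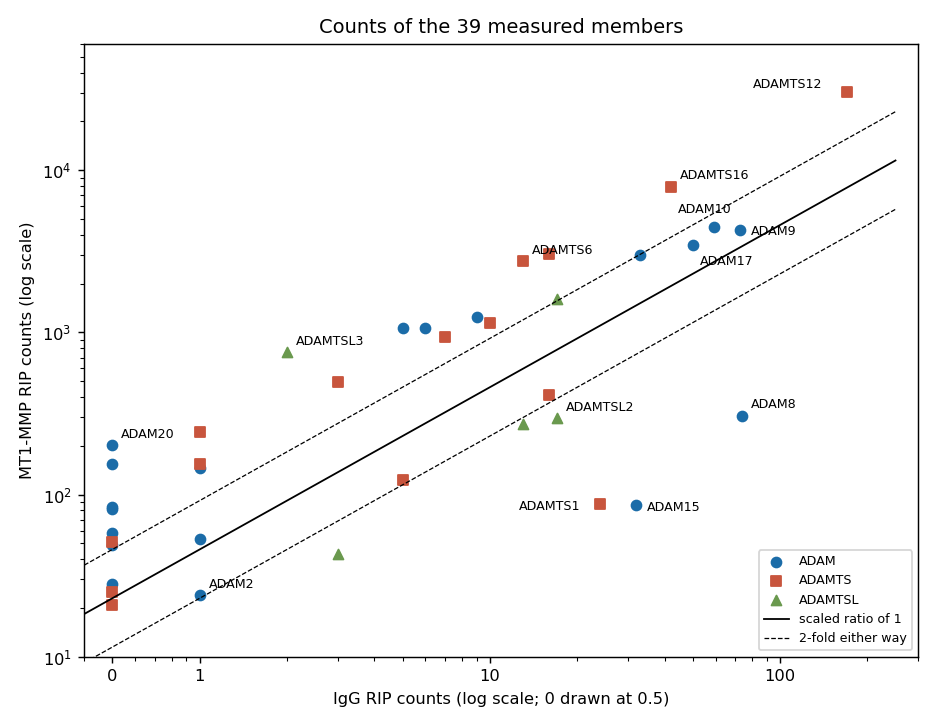
Counts of the 39 measured genes in the IgG library (horizontal, log scale, 0 drawn at 0.5) and the MT1-MMP library (vertical, log scale), 1 point per gene, with the line of a scaled ratio of 1 and the 2-fold lines. ADAMTS12 and ADAMTS16 lie above the upper 2-fold line with 30453 and 7919 MT1-MMP counts, and ADAM8, ADAM15 and ADAMTS1 lie far below the lower one.

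Among the ADAM genes, the widely expressed membrane proteases carried most of the counts. ADAM10, the sheddase that starts Notch activation by cutting the ligand-bound receptor, had 4438 MT1-MMP and 59 IgG counts. ADAM9, a sheddase with integrin-binding activity, had 4274 and 73 counts. ADAM17, which releases TNF and several EGF receptor ligands, had 3468 and 50 counts. ADAM19, a sheddase of neuregulin, had 2985 and 33 counts. All 4 were well counted in both libraries and lay slightly above the typical row.

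Their log2 ratios were 0.34 for ADAM9 (95% interval 0.02 to 0.71), 0.58 for ADAM17 (0.19 to 1.03), 0.70 for ADAM10 (0.34 to 1.11) and 0.96 for ADAM19 (0.49 to 1.52). The intervals overlap from each of these genes to the next, so the counts do not resolve each step of their order. Differences between single genes were not tested. None of the 4 was called. ADAM17 (chromosome 2, 9488486 to 9555830) shares 23923 bases with IAH1, which had 1052 and 26 counts, so some reads may belong to either. ADAM12, a protease of tumour and muscle cells whose gene spans 376.1 kb, had 1242 and 9 counts and a log2 ratio of 1.51 (0.66 to 2.72), which is not a call. ADAM28, known from lymphocytes, had 84 MT1-MMP counts and 0 IgG counts, which is too few for any fold against the floor of 3 IgG counts.

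ADAM8 and ADAM15 stood on the other side. ADAM8 (chromosome 10, 133262423 to 133276868), a protease of leukocytes that is also linked to breast cancer cell invasion, had 307 MT1-MMP counts and 74 IgG counts, the most IgG counts of any ADAM gene. ADAM15 (chromosome 1, 155051316 to 155062775), whose disintegrin domain holds an integrin-binding RGD motif, had 86 and 32 counts. The log2 ratios were -3.48 for ADAM8 (-3.84 to -3.08) and -4.11 for ADAM15 (-4.70 to -3.46). Both intervals lie wholly below those of the 4 sheddases above. By plain CPM these 2 genes were at 0.76 (0.40 to 1.16) and 0.13 (-0.46 to 0.78) and not called. Only the interval of ADAM15 includes equal shares of the 2 whole libraries. MMP14, the mRNA of the RIP target, was in the same range, with 367 and 134 counts and a log2 ratio of -4.07 (-4.36 to -3.77).

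The ADAM genes without protease activity had few IgG counts. Of the neural group, which binds LGI proteins or integrins at synapses, ADAM22 had 1064 and 5 counts (log2 ratio 2.08, 0.99 to 3.84), just short of a call. ADAM23 had 154 and 0 counts, with an interval from -0.15 upwards that includes no difference, and ADAM11 had 28 and 0. Those of the male reproductive tract, which take part in sperm maturation and egg binding, ranged from ADAM2 with 24 and 1 counts to ADAM32 with 1057 and 6 counts (1.83, 0.81 to 3.39). ADAM7, ADAM18 and ADAM29 lay between them with 58, 49 and 53 MT1-MMP counts and at most 1 IgG count each. The pseudogene ADAM5 had 82 and 0 counts. No gene of these groups was called, and in all of them except ADAM22 and ADAM32 the IgG library gave at most 1 count.

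The testis proteases ADAM20 and ADAM21 lie 62.5 kb apart on chromosome 14. ADAM20 had 202 MT1-MMP counts and 0 IgG counts, with an interval from 0.24 upwards, and ADAM21 had 145 and 1 counts (log2 ratio 1.08, -0.84 to 6.97). Related copies lie beside them, so reads could be shared among these rows. With 0 IgG counts, 341 MT1-MMP counts were needed for a call, and only 17 of the 39 measured genes, 7 ADAM and 10 secreted, had that many. A gene below this count could be called only on the IgG side.

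The secreted group held the strongest signals of the MT1-MMP library. ADAMTS12 (chromosome 5, 33523535 to 33891990), a protease of cartilage oligomeric matrix protein, had 30453 MT1-MMP counts and 170 IgG counts, 43.1% of all MT1-MMP counts of the 46 genes. ADAMTS16 (chromosome 5, 5140330 to 5320304), known for fibronectin cleavage and roles in kidney and gonad, had 7919 and 42 counts. ADAMTS9 (chromosome 3, 64515654 to 64688000), a versican-cleaving protease, had 3029 and 16 counts. These 3 had the most MT1-MMP counts of the secreted genes. In the IgG library ADAMTS12 and ADAMTS16 also led, whereas ADAMTS1, ADAMTSL1 and ADAMTSL2 had more counts than ADAMTS9.

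Their log2 ratios were 1.96 for ADAMTS12 (95% interval 1.75 to 2.19), 2.02 for ADAMTS16 (1.60 to 2.51) and 2.0 for ADAMTS9 (1.34 to 2.85). ADAMTS6 (chromosome 5, 65148738 to 65481920), a protease that acts on fibrillin microfibrils and is needed in heart development, had 2750 and 13 counts and a log2 ratio of 2.15 (1.43 to 3.12). ADAMTSL3, an ADAMTS-like matrix protein without protease domain, had 755 and 2 counts and a log2 ratio of 2.72 (1.18 to 6.09), which rests on the 2 IgG counts. These 5 intervals overlap one another, so their order is not resolved. By plain CPM the 5 log2 ratios ran from 6.20 to 6.96.

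ADAMTS9 holds the antisense row ADAMTS9-AS1 (608 and 3 counts) inside its span and shares 3131 bases with ADAMTS9-AS2 (3913 and 28 counts). ADAMTS16 also has an annotated antisense gene, not analysed here. How counting treated strand is not stated, so sense and antisense reads cannot be told apart. RefSeq rows that overlap ADAMTS12 and ADAMTS6 and occur in the table held 0 and 5 MT1-MMP counts.

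The 2 best counted of the secreted genes can be set against the sheddases beyond counting error. The intervals of ADAMTS12 and ADAMTS16 lie wholly above those of ADAM9, ADAM10, ADAM17 and ADAM19, whose highest bound was 1.52. Spans differ less for ADAM10, at 160.9 kb, and ADAMTS16, at 180.0 kb. The upper bound of ADAM10, 1.11, lies below the lower bounds of ADAMTS16 (1.60) and of ADAMTS9 (1.34), whose span is 172.3 kb. Other ADAM genes of like span did not lie below them. ADAM32, at 177.4 kb, had an interval of 0.81 to 3.39, and that of ADAM23, at 177.6 kb, ran from -0.15 upwards. Both overlap the interval of ADAMTS16. The secreted ADAMTS18, at 152.9 kb, was at 0.15 with 0 IgG counts. Nearer in span to ADAM19, at 98.5 kb, is the secreted ADAMTS14, at 89.9 kb. Its interval of 0.42 to 2.37 overlaps that of ADAM19, 0.49 to 1.52. These comparisons are of genes within 1 pair of libraries and do not extend to other immunoprecipitations.

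**Figure D2:**
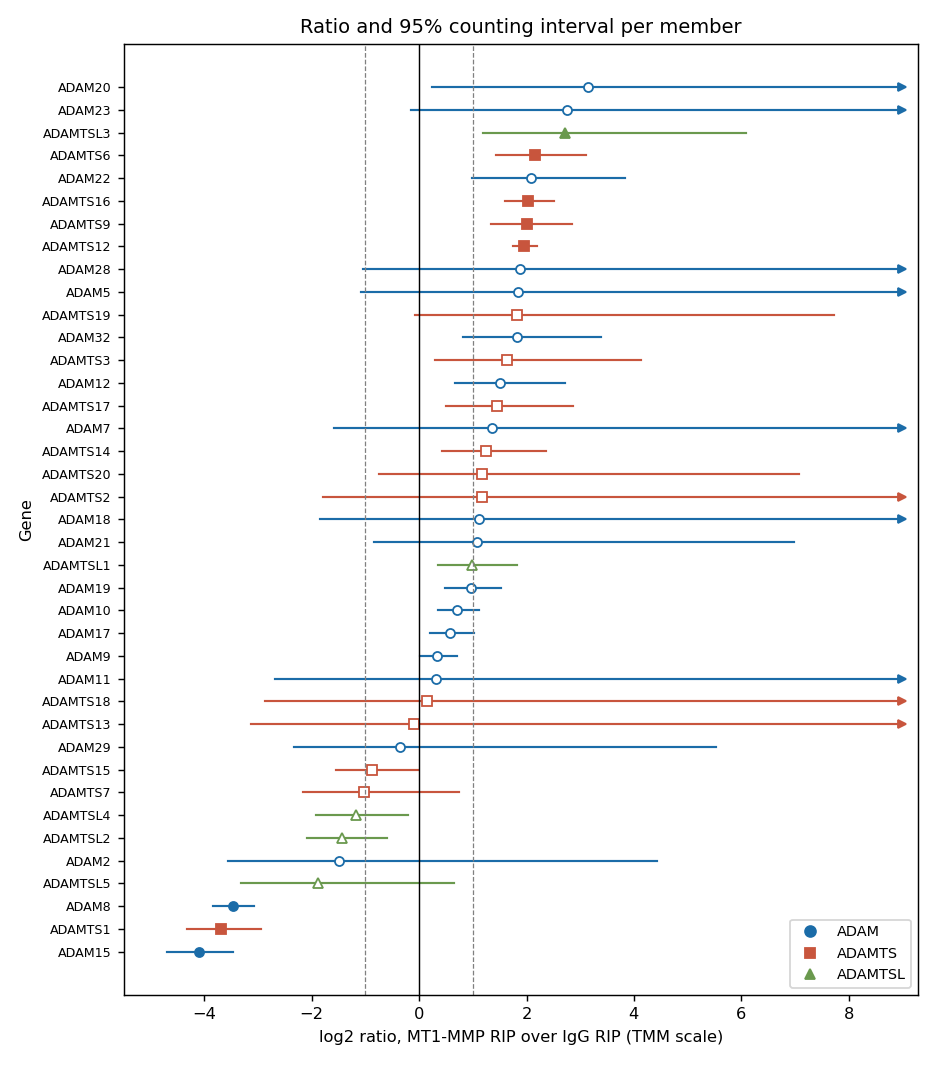
Log2 ratio of MT1-MMP RIP over IgG RIP on the TMM scale (horizontal) for each of the 39 measured genes (vertical), with exact 95% counting intervals. Filled symbols are called, dashed lines mark 2-fold, and arrows mark intervals with no upper end because the IgG count was 0. The 4 sheddases ADAM9, ADAM17, ADAM10 and ADAM19 sit between 0.34 and 0.96, below ADAMTS12 at 1.96 and ADAMTS16 at 2.02. These genes differ in span, which is not drawn here.

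The other proteoglycanases differed from ADAMTS9. ADAMTS1 (chromosome 21, 26835755 to 26845409), an aggrecan- and versican-cleaving protease induced by inflammation and hypoxia, had 87 MT1-MMP counts and 24 IgG counts. Its log2 ratio was -3.68 (-4.33 to -2.95), the lowest of the secreted genes, and 0.55 by plain CPM. ADAMTS15 had 410 and 16 counts (-0.88, -1.56 to -0.02) and was not called. ADAMTS20, a versican protease of pigment cell development, had 155 and 1 counts, while ADAMTS4 and ADAMTS5, the main aggrecanases of cartilage, were not measured.

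The procollagen N-proteinases, which trim fibrillar procollagens, had ratios on the MT1-MMP side without a call. ADAMTS14 had 1135 and 10 counts (log2 ratio 1.24, 0.42 to 2.37) and ADAMTS3 had 498 and 3 counts (1.63, 0.30 to 4.14). ADAMTS2, which is the main enzyme of skin procollagen, had 51 and 0 counts. ADAMTS7, the close relative of ADAMTS12, had 123 and 5 counts (-1.03, -2.16 to 0.75), an interval wholly below that of ADAMTS12. Its span is 52.3 kb against 368.5 kb.

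The remaining ADAMTS genes were ADAMTS17 with 937 and 7 counts (1.45, 0.50 to 2.86), ADAMTS19 with 244 and 1, ADAMTS18 with 25 and 0, and the von Willebrand factor protease ADAMTS13 with 21 and 0. None was called. The ADAMTSL genes spread over both sides. ADAMTSL1 had 1597 and 17 counts (log2 ratio 0.99, 0.35 to 1.82), ADAMTSL2 had 297 and 17 (-1.43, -2.10 to -0.59), ADAMTSL4 had 273 and 13 (-1.18, -1.93 to -0.20), and ADAMTSL5 had 43 and 3 (-1.89, -3.32 to 0.65). The interval of ADAMTSL3 lies above those of ADAMTSL2, ADAMTSL4 and ADAMTSL5. ADAMTSL4 shares 8317 of its bases with ADAMTSL4-AS2, which had 152 and 7 counts, a similar proportion.

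Membrane ADAM genes and secreted genes had nearly the same median log2 ratio, 1.08 over 19 and 1.17 over 20 measured genes, against 0.05 over all tested protein-coding rows. Both medians are drawn from few IgG counts: 10 of 19 ADAM genes and 5 of 20 secreted genes had at most 1. The pseudogene ADAM5 is among the 19, and the median of the 18 protein-coding ADAM genes was 1.02. With each gene of 0 IgG counts set to its floor, the medians were 0.16 and 1.08, and -0.28 over protein-coding rows. The floor, 3 IgG counts, applied to 7 ADAM and 3 secreted genes and to none with 1 or 2 IgG counts. It therefore lowers the 2 medians unequally. Summed over the whole class, which needs no added count, the ADAM genes had 19801 and 344 counts and the secreted genes 50840 and 360. The log2 ratios of these sums were 0.33 (0.17 to 0.48) and 1.62 (1.47 to 1.78).

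A few genes set both sums. Without ADAMTS12, the sum of the secreted genes was at 1.22 (1.02 to 1.44), still above that of the ADAM genes. Without ADAMTS16 as well it was at 0.88 (0.64 to 1.12), and without ADAM8 and ADAM15 the ADAM sum was at 0.83 (0.64 to 1.02). With these 4 genes left out, a choice made after their values were seen, the 2 sums no longer differed beyond counting error. The ADAMTSL genes alone, at 2965 and 52 counts, gave 0.31 (-0.08 to 0.74), an interval below the 1.76 (1.60 to 1.93) of the ADAMTS genes.

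Gene span, the length from start to end with introns, went with the ratio among these genes and in the table as a whole. The 10 measured genes of 50 kb or less had a median log2 ratio of -1.31, and 3 of them (30%) were IgG calls and 0 MT1-MMP calls. Protein-coding rows of that span had a median of -0.77, with 25.8% IgG calls and 0.943% MT1-MMP calls. The 17 measured genes over 150 kb had a median of 1.83, and 5 of them (29.4%) were MT1-MMP calls and 0 IgG calls. For protein-coding rows of over 150 kb the shares were 34.2% and 1.55% and the median was 1.37. The share of long genes called is thus near the background of long genes and is no result about this family.

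The classes differed in span. Among measured genes the median was 94.5 kb for ADAM and 176.2 kb for secreted genes, and 5 ADAM and 12 secreted genes exceeded 150 kb. Across the 39 genes, which share the 2 libraries and are not independent, Spearman's rho between span and log2 ratio was 0.68 and Pearson's r on log2 span was 0.71. Protein-coding rows were divided by span into 10 bins of equal size, and with the median of its bin subtracted the median ADAM gene lay 0.24 above and the median secreted gene at -0.08. The part of span in the class difference was not tested beyond this.

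The called genes were also set against rows of their own span, though the same ratios had chosen them. Relative to the median of their bin, ADAM8 was at -2.49, ADAM15 at -2.44 and ADAMTS1 at -2.01, while ADAMTSL3 was at 1.25, ADAMTS16 at 1.03, ADAMTS9 at 1.01, ADAMTS6 at 0.68 and ADAMTS12 at 0.49. The intervals of ADAMTS6 and ADAMTSL3 include the median of their bin, and those of the other 6 called genes do not. For ADAMTS9 and ADAMTS16 (bin median 0.99) and ADAM8 (-0.99) the call itself required this, since these medians lie within 2-fold. The share of all rows whose interval leaves out the median of their bin was not computed. Of the uncalled genes, ADAM21 lay above its bin (2.75, on 1 IgG count) and ADAMTSL2 (-1.48) and ADAM9 (-0.38) below theirs by the same measure. The 4 sheddases were within 0.4 of it, from -0.38 for ADAM9 to 0.24 for ADAM19. These differences are of single genes from a median and have no replicate error.

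**Figure D3:**
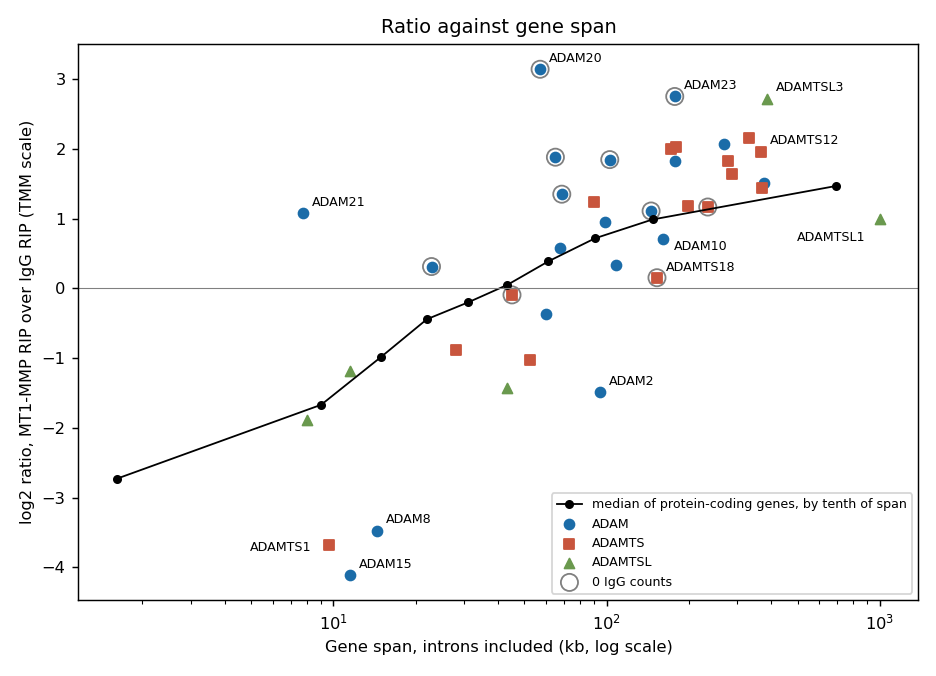
Log2 ratio on the TMM scale (vertical) against gene span in kb (horizontal, log scale) for the 39 measured genes, with the median of protein-coding rows in each of 10 bins of span joined by a line. Grey rings mark genes with 0 IgG counts. ADAM8, ADAM15 and ADAMTS1 lie 2.01 to 2.49 below the line, and ADAMTS12, at 368.5 kb, lies 0.49 above the median of its bin.

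Levels can be compared between genes only per length, here as counts per kb of span, since exon lengths were not used. In the MT1-MMP library ADAMTS12 led at 82.7 counts per kb, above 97.1% of protein-coding rows. ADAM17 (51.5), ADAMTS16 (44.0), ADAM9 (39.5), ADAM19 (30.3), ADAM10 (27.6), ADAMTSL4 (23.7) and ADAM8 (21.2) followed, and the median protein-coding row had 7.58. Of the 46 genes, 18 had under 1 count per kb. In the IgG library the order was another: ADAM8 led at 5.12 counts per kb, then ADAM15 at 2.79 and ADAMTS1 at 2.49, while ADAMTS12 had 0.461.

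**Figure D4:**
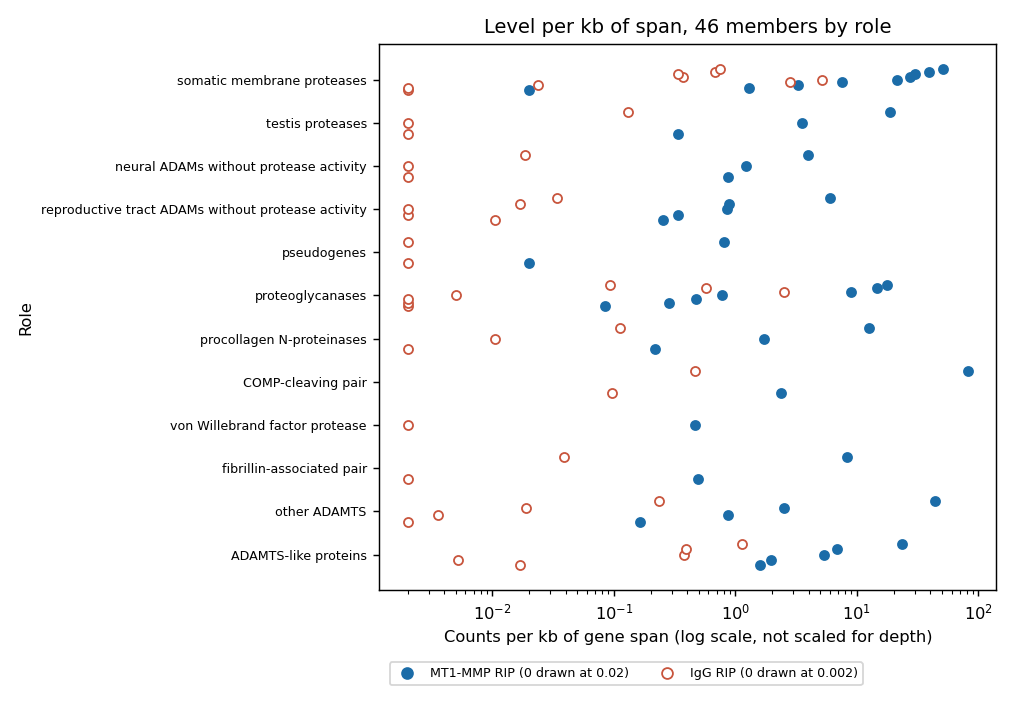
Counts per kb of gene span (horizontal, log scale, not scaled for depth) in the MT1-MMP library (filled) and the IgG library (open), with counts of 0 drawn at the left as the legend gives, 1 pair of points per gene, for all 46 genes by role (vertical). The somatic membrane proteases reach 51.5 and the pair that cleaves cartilage oligomeric matrix protein 82.7 in the MT1-MMP library, while the reproductive tract group lies between 0.254 and 5.96.

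Levels differed along the ADAM cluster of chromosome 8. ADAM9 ends at 39105261 and ADAM32 starts 2.27 kb further on. The MT1-MMP counts per kb were 39.5 for ADAM9, 5.96 for ADAM32, 0.798 for ADAM5, 0.337 for ADAM18 and 0.254 for ADAM2, in the order of their positions, and the IgG counts were 73, 6, 0, 0 and 1. Other neighbours also differed. ADAMTS15 had 14.6 counts per kb and ADAMTS8, which lies 20 kb away on chromosome 11, had 0.0844. On chromosome 21, ADAMTS1 had 9.01 and ADAMTS5, which lies 72.5 kb away, had 0.285.

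Genes that act with these proteases are given by list, with background shares and spans after the last list. Of 22 regulators of ADAM proteins (iRhoms, tetraspanins, inhibitors, convertases and adaptors), 20 were measured, with 2 MT1-MMP calls, 4 IgG calls, 14 neither and a median log2 ratio of -0.22. The higher 2 were TSPAN5, a tetraspanin that escorts ADAM10 to the surface (12277 and 70 counts, log2 ratio 1.92, 1.60 to 2.29), and DLG1, a scaffold that binds ADAM tails (24160 and 178, 1.56, 1.35 to 1.79). The IgG calls with the lowest upper bounds were TIMP1, a secreted metalloproteinase inhibitor (10 and 22 counts, -6.62, -7.90 to -5.52), FURIN, which removes the prodomain of ADAM and ADAMTS proteins (70 and 15, -3.34, -4.12 to -2.39), and RHBDF1, the iRhom1 partner of ADAM17 (96 and 15, -2.88, -3.64 to -1.95). By plain CPM TIMP1 stayed below 0 at -2.38, and FURIN and RHBDF1 were at 0.90 and 1.36.

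Of 28 ADAM substrates, 24 were measured, with 3 MT1-MMP calls, 4 IgG calls, 17 neither and a median of 0.15. EFNA5, the ligand ephrin-A5 that ADAM10 can cut (45759 and 186 counts, 2.42, 2.21 to 2.64), NRG1, the neuregulin-1 precursor (29309 and 156, 2.03, 1.81 to 2.27), and TGFA, an EGF receptor ligand shed by ADAM17 (1639 and 9, 1.91, 1.06 to 3.12), were the MT1-MMP calls. LRP1, an endocytic receptor (545 and 57, -2.27), TNFRSF1A, a TNF receptor (359 and 36, -2.22), and EPHA2, an ephrin receptor (1109 and 71, -1.56), were among the IgG calls, and lay at 1.96, 2.02 and 2.67 by plain CPM.

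Of 21 substrates, matrix partners and glycosylating enzymes of ADAMTS and ADAMTSL proteins, 14 were measured, with 0 MT1-MMP calls, 4 IgG calls, 10 neither and a median of -0.52. THBS1, the matricellular thrombospondin-1 (1883 and 549 counts, -3.74, -3.88 to -3.60), COL1A1, a fibrillar collagen chain (24 and 12, -4.55, -5.58 to -3.39), and FN1, fibronectin (2905 and 267, -2.08, -2.26 to -1.89), were IgG calls. With plain CPM THBS1 was at 0.49, COL1A1 at -0.31 and FN1 at 2.16. VCAN, the versican cut by several ADAMTS proteases, had 25 and 0 counts. The 3 shares called higher in the MT1-MMP library were 10%, 12.5% and 0%, beside 7.24% over protein-coding rows, and those higher in the IgG library 20%, 16.7% and 28.6%, beside 16.2%. Span went with the side here too. The MT1-MMP calls came from genes of 106.5 kb (TGFA) to 1135 kb (NRG1), and the IgG calls from genes of 4.35 kb (TIMP1) to 84.9 kb (LRP1). The shares were not set against rows of like span.

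The scale sets how many of these genes count as higher. By plain CPM, 34 of the 39 measured genes (16 ADAM and 18 secreted) were MT1-MMP calls and 0 were IgG calls, where 86.1% of tested protein-coding rows were MT1-MMP calls and 0.692% IgG calls. The 5 not called were ADAM8, ADAM15, ADAMTS1, ADAM2 and ADAMTSL5. By totals without the ribosomal rows, ADAM12, ADAM19, ADAM22 and ADAM32 joined the genes called higher in the MT1-MMP library, as did ADAMTS14 and ADAMTS17. The share of all tested rows called on that scale was not computed. A change of scale moves all genes alike, so it leaves the difference between the class medians at -0.09. All 5 genes called higher in the MT1-MMP library overlap another annotated gene, although the overlapping rows found in the table held at most 5 MT1-MMP counts each for ADAMTS12, ADAMTS6 and ADAMTSL3. Over the 15 measured genes that overlap none (8 ADAM and 7 secreted) the medians were 0.70 for ADAM and -0.88 for secreted genes.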

How the data were processed

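The deposited table gives whole-number read counts per gene row in 1 column for each of the 2 libraries. Per the submitters' processing notes the authors used cutadapt, HISAT2 and SAMtools with build hg38. Tool versions, the counter, its gene annotation and its strand setting were not given in the sources used here. Reads in introns and overlapping genes may be part of a row's count. Columns were tied to samples through the labels.

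From the counts, TMM factors (edgeR 4.0.16) were computed over the 25933 rows with at least 20 summed counts, after leaving out 539 rows that repeat the name and nonzero counts of another row. Log2 ratios have 0.5 counts added per library. Intervals are Clopper-Pearson at 95%, conditional on the summed count (scipy 1.17.1), and the call was tested on simulated data with counting error only. Without molecular identifiers reads are not independent molecules. Spans and names come from RefSeq GRCh38.p14. Genes named outside the family were MMP14, overlapping rows, and up to 3 called genes per list and direction by interval bound. Several items were added after their values were seen. They were VCAN, the markers PECAM1, CDH5, LGALS1, EGFR, ESR1, GATA3 and KRT19, and the full statistics of some uncalled family members. The genes, lists and roles were chosen with earlier results of these data known. Alternatives were other scalings (plain CPM, totals without the ribosomal rows, DESeq2 1.42.0 size factors, upper quartile, protein-coding TMM), minimums of 1 and 100 counts, 2 or 5 added counts, removal of the span trend, and leaving out overlapping genes or pseudogenes. A planned search of the proteins for the zinc-binding motif was not run, and protein sequence was not used here.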

Additional observations from a re-analysis of the deposited data

How the results depend on the processing

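No paired analysis was possible because each group has 1 library. The ADAM median of 1.08 became 5.32 by plain CPM, 0.094 and -0.88 with 2 and 5 counts added, and 0.24 with the span trend removed, and the secreted median of 1.17 became 5.41, 0.51, -0.46 and -0.08 under the same settings, and -0.88 without overlapping genes. The difference of medians, -0.09, lay between -0.42 and 0.45 under the other alternatives and was 1.58 over the 8 ADAM and 7 secreted genes whose span overlaps no annotated gene. Calls higher in the MT1-MMP library among ADAM genes, 0 in the main comparison, were 16 by plain CPM, 4 by totals without the ribosomal rows, 1 by upper quartile and by protein-coding TMM, and 3 with a minimum of 1 count. The secreted calls, 5, were 18 by plain CPM, 3 with a minimum of 100 counts (ADAMTS9 and ADAMTSL3 lost) and 0 without overlapping genes, since all 5 overlap one. Calls higher in the IgG library, 2 ADAM and 1 secreted, were 0 and 0 by plain CPM, where ADAM8, ADAM15 and ADAMTS1 turned to 0.76, 0.13 and 0.55. They were 1 ADAM gene without overlapping genes and 2 secreted genes with a minimum of 100 counts. Over tested protein-coding rows the shares called higher in the MT1-MMP and IgG libraries were 7.24% and 16.2% in the main comparison. By plain CPM these shares were 86.1% and 0.692%, and under the other settings they were not computed. The minimums also change the scale, by 0.36 and -0.42 on the log2 scale. IgG depth limits every ratio: 10 of 39 genes had 0 IgG counts.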
